A study of Caenorhabditis elegans with 15 samples.

Results

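The 6 genes described here encode the regulators that decide when a cell enters M phase: the phosphatase genes cdc-25.1, cdc-25.2, cdc-25.3 and cdc-25.4, the inhibitory kinase gene wee-1.3 and the Polo kinase gene plk-1. The members are the probe sets to which the array platform's annotation gives 1 of these symbols, which gave 9 probe sets for 6 of 6 genes among 22548 tested probe sets and 17118 genes. None of the 9 probe sets is shared with another gene symbol (0). The question was whether these messages were recovered with GLD-1, the germline translational repressor of the STAR family of RNA-binding proteins, in Caenorhabditis elegans.

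RNA came from whole young adult worms and was hybridised to 15 single-colour Affymetrix arrays in 5 groups of 3. The tagged strain carries the gld-1 allele q485, a null allele, and the transgene ozIs2, which supplies GLD-1 fused to GFP and FLAG. From its extract came the input RNA, an anti-MYC control immunoprecipitation (IP) and an anti-FLAG IP (set 1), and a further anti-FLAG IP (set 2). The second control was an anti-FLAG IP from N2, the wild type, whose GLD-1 has no tag. Strategy 1 compared anti-FLAG with anti-MYC within the tagged strain, and strategy 2 compared the tagged strain with N2 under the anti-FLAG antibody. No input from N2 was measured. In strategy 2, recovery and a difference in message level between the strains therefore cannot be told apart. Mouse brain RNA was added to every IP as a carrier, and the labels do not say to which set the inputs belong. Nor do they say that replicates came from separate cultures, so p-values measure the spread between these samples.

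In animal cells the kinase CDK1, bound to a B-type cyclin, drives M phase. Kinases of the Wee1 and Myt1 type hold it inactive by phosphorylation, CDC25 phosphatases remove those phosphates, and Polo kinase promotes the switch. In C. elegans the switch is delayed for a long time in the oocyte, which arrests in meiotic prophase until maturation, and GLD-1 acts in germ cells that have entered meiosis but have not yet become full-grown oocytes.

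Values are log2 signals made with GCRMA, which corrects for background and sums the probes of a set. A level can be compared across arrays for 1 probe set, but not between probe sets. A change is the mean log2 value of the anti-FLAG arrays minus that of the control arrays, with its standard error (SE) from a single limma fit of the 12 IP arrays. A probe set was called when its p-value, adjusted by Benjamini and Hochberg over all 22548, was under 0.05. With 3 arrays against 3, an exact permutation test cannot go below p = 0.1, so single values were not tested that way.

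The gld-1 message itself was recovered in both strategies, at 44.7-fold (log2 5.48 ± 0.575 SE, limma adjusted p = 0.00231) and 46.8-fold (log2 5.55, adjusted p = 0.000945). All 6 oocyte markers were called higher in both strategies, with median changes of 5.35 and 6.56. None of the sperm (4 of 5 measured), muscle (5), intestine (5) or hypodermis (5) markers was called in either, and 2 of 5 neuron markers, unc-119 and snb-1, were called in strategy 2. No marker of these tissues lay at the lowest value of the array in all inputs. The sperm marker spe-9, however, lay within 0.1 of it in 2 of the 3 inputs and in every IP array, so it tells little. The IP arrays were much dimmer than the inputs, with 194 to 2170 probe sets at log2 5 or more against 7632 to 9352. Ribosomal protein messages, taken here as background RNA, gave an array median of 5.75, 7.99 and 9.85 in the anti-FLAG IPs of set 1 and of 6.51, 7.71 and 9.40 in the anti-MYC IPs. In set 2 it was 7.81, 7.43 and 6.73 in the tagged strain and 7.98, 7.11 and 6.44 in N2. Replicate 1 of the anti-FLAG IPs of set 1 was the dimmest of the 6 tagged anti-FLAG arrays. The strategy 1 changes of cdc-25.1, cdc-25.3, wee-1.3 and plk-1 are given with and without it. Anti-MYC replicate 1, with 194 probe sets at log2 5 or more, was likewise the dimmest of its group.

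**Figure D1:**
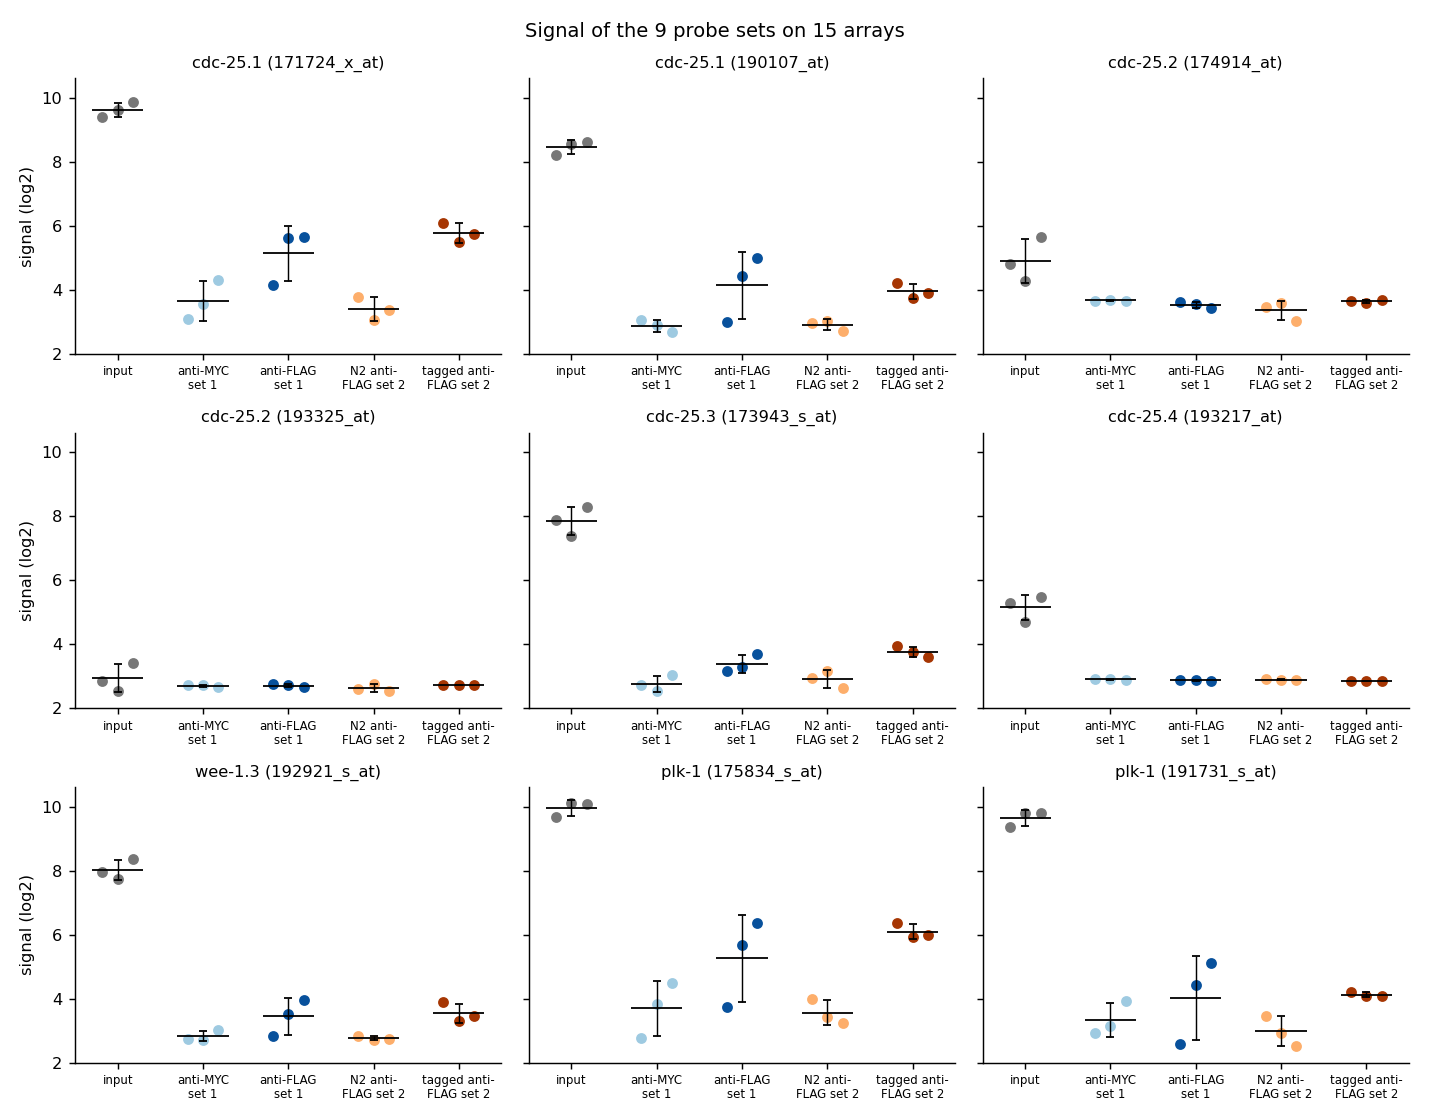
Log2 signal of each of the 9 probe sets (1 panel each) on every array, by group, with 1 point per array and a line at the group mean and bars for 1 SD. The input mean lies above every IP mean in all panels, and the anti-FLAG arrays of the tagged strain separate most clearly from the N2 arrays for cdc-25.1 (171724_x_at, 5.48 to 6.08 against 3.05 to 3.78) and plk-1 (175834_s_at, 5.92 to 6.36 against 3.25 to 4.0).

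Of the CDC25-type phosphatase genes, cdc-25.1 gave the largest recovery, and it was called in strategy 2. The gene, on chromosome I, is needed for germ cell proliferation and for the early embryonic divisions. Its brighter probe set, 171724_x_at, read 9.39, 9.61 and 9.85 in the 3 inputs. It read 3.78, 3.05 and 3.37 in the N2 IPs and 6.08, 5.48 and 5.74 in the tagged anti-FLAG IPs of set 2. Every tagged array lay above every N2 array, and the gap between the nearest pair was 1.71. The change in strategy 2 was 2.37 ± 0.452 (95% interval 1.34 to 3.39), or 5.15-fold, with a limma adjusted p of 0.0161.

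In set 1 the same cdc-25.1 probe set read 3.07, 3.56 and 4.30 after anti-MYC and 4.14, 5.62 and 5.65 after anti-FLAG. The groups overlapped, because anti-FLAG replicate 1 lay below anti-MYC replicate 3. The change was 1.49 ± 0.452 (0.47 to 2.52), or 2.81-fold, and did not pass (adjusted p = 0.186). Without anti-FLAG replicate 1 it was 1.99 with an adjusted p of 0.0101. Leaving out anti-MYC replicate 1 instead gave 1.20 (adjusted p = 0.531), and leaving out anti-FLAG replicate 3 gave 1.23 (adjusted p = 0.609). The difference between the strategies was -0.88 ± 0.639 (-2.33 to 0.57), which did not pass either (adjusted p = 0.997). In strategy 2 the call was lost without N2 replicate 2 (2.19, adjusted p = 0.0708), N2 replicate 3 (2.35, adjusted p = 0.0654) or tagged replicate 1 (2.21, adjusted p = 0.0767), and it was kept in the other 9 of 12 refits that each left out 1 array. It was also lost where arrays were rescaled, at 0.68 (adjusted p = 0.398) after quantile normalization and 0.69 (adjusted p = 0.119) after cyclic loess.

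The array maker's suffix marks 171724_x_at as sharing sequence with other transcripts, so part of its signal may belong to another message. The second cdc-25.1 probe set, 190107_at, has no such suffix. It read 8.20, 8.54 and 8.62 in input. Of the set 2 arrays, the N2 ones read 2.97, 3.03 and 2.71 and the tagged ones 4.20, 3.73 and 3.91. The tagged arrays again all lay above the N2 arrays, with a gap of 0.70, but the change of 1.04 ± 0.426 (0.07 to 2.01) was not called (adjusted p = 0.144). In set 1 it read 3.05, 2.90 and 2.68 after anti-MYC and 2.98, 4.42 and 5.00 after anti-FLAG. Only anti-FLAG replicate 1 lay among the control arrays. The change there was 1.25 ± 0.426 (adjusted p = 0.25), without that array 1.83 (adjusted p = 0.000921) and without anti-FLAG replicate 3 0.82 (adjusted p = 0.72). Without anti-FLAG replicate 1 of set 1 the strategy 2 change, still 1.04, was called too (adjusted p = 0.00905), as it was in a fit of its own 6 arrays (adjusted p = 0.0209). Both cdc-25.1 probe sets gave positive changes in both strategies, and in the fit of all 12 IP arrays the call came from the one with shared sequence.

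For cdc-25.3, on chromosome III, the changes were smaller, with the strategy 2 change called. Its single probe set, 173943_s_at, read 7.89, 7.39 and 8.27 in input, and its suffix also marks shared sequence. The set 2 arrays read 2.94, 3.16 and 2.62 in N2 and 3.93, 3.75 and 3.60 in the tagged strain, with no overlap and a gap of 0.44. The change was 0.85 ± 0.19 (0.42 to 1.29), or 1.81-fold, and was called (adjusted p = 0.0326). In set 1 the anti-MYC arrays read 2.71, 2.52 and 3.02 and the anti-FLAG arrays 3.16, 3.28 and 3.68. Here too the groups did not overlap, by 0.14, and cdc-25.3 was the only 1 of the 6 genes for which this held with anti-FLAG above the control in both strategies. The change of 0.62 ± 0.19 (0.19 to 1.06), or 1.54-fold, was not called (adjusted p = 0.188). Without anti-FLAG replicate 1 it was 0.73 and still not called (adjusted p = 0.0555). The N2 and anti-MYC groups each had 1 array within 0.1 of that array's lowest value, so these folds may understate the ratio of the messages. The difference between the strategies was -0.23 (adjusted p = 0.997).

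The strategy 2 call of cdc-25.3 held in 5 of the 12 refits that left out 1 array. It was lost without N2 replicate 1 (adjusted p = 0.0909) or 3 (0.123), without tagged replicate 1 (0.138), 2 (0.0978) or 3 (0.0557), and, through the shared spread alone, without anti-MYC replicate 1 (0.0568) or anti-FLAG replicate 2 of set 1 (0.0535). The change itself stayed between 0.71 and 0.98. After quantile normalization it was 0.54 (adjusted p = 0.577) and after cyclic loess 0.28 (adjusted p = 0.384).

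For cdc-25.2, on chromosome V, the changes had opposite signs in the 2 strategies and neither was called. This gene acts in oocyte maturation and in intestinal divisions. Its brighter probe set, 174914_at, read 4.80, 4.28 and 5.63 in input. In set 1 it read 3.65, 3.68 and 3.66 after anti-MYC and 3.62, 3.54 and 3.43 after anti-FLAG, so every anti-FLAG array lay below every control array. In set 2 it read 3.46, 3.58 and 3.01 in N2 and 3.66, 3.59 and 3.68 in the tagged strain, where every anti-FLAG array lay above the control arrays, the nearest by 0.01. The changes of -0.13 ± 0.125 (-0.41 to 0.15, adjusted p = 0.518) and 0.30 ± 0.125 (0.01 to 0.58, adjusted p = 0.144) did not pass, nor did their difference of -0.43 ± 0.177 (-0.83 to -0.03, unadjusted p = 0.039 and adjusted p = 0.997 in limma). The second probe set, 193325_at, read 2.85, 2.54 and 3.40 in input and its change was 0.00 ± 0.0502 in strategy 1 (adjusted p = 0.966) and 0.09 ± 0.0502 in strategy 2 (adjusted p = 0.222).

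The signal of cdc-25.4, a gene of chromosome II with a role in male mating, varied little across the IPs. Its probe set, 193217_at, read 5.28, 4.70 and 5.46 in input, and the 12 IP values all lay between 2.84 and 2.91, at 0.35 to 0.39 above each array's lowest value. The changes were -0.03 ± 0.0152 (adjusted p = 0.322) and -0.04 ± 0.0152 (adjusted p = 0.144). In set 2 the tagged arrays, at 2.86, 2.85 and 2.84, all lay below the N2 arrays, at 2.90, 2.87 and 2.88. A signal this near the lowest value does not show that the message was absent from an IP.

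The inhibitory kinase gene wee-1.3, on chromosome II, encodes the Myt1-type kinase that restrains oocyte maturation. Its probe set, 192921_s_at, read 7.96, 7.73 and 8.35 in input. In the strain comparison it read 2.83, 2.72 and 2.74 in N2 and 3.88, 3.29 and 3.45 in the tagged strain, and the groups were 0.46 apart. The change was 0.78 ± 0.259 (0.19 to 1.36), or 1.71-fold, and was not called (unadjusted p = 0.0153, limma adjusted p = 0.144). In set 1 it read 2.74, 2.72 and 3.01 after anti-MYC and 2.84, 3.53 and 3.97 after anti-FLAG. The groups overlapped through anti-FLAG replicate 1, and the change was 0.62 ± 0.259 (0.03 to 1.21, adjusted p = 0.322). Without that array the change in strategy 1 was 0.92 (adjusted p = 0.0189), and that in strategy 2, still 0.78, was called as well (adjusted p = 0.0247). The strategy 1 change was 0.58 without anti-MYC replicate 1 (adjusted p = 0.666) and 0.36 without anti-FLAG replicate 3 (adjusted p = 0.749). The strategy 2 change was also called in a fit of its own 6 arrays (adjusted p = 0.0318) and after quantile normalization (0.63, adjusted p = 0.0173).

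The Polo kinase gene plk-1, on chromosome III, acts in nuclear envelope breakdown and in the polarity and divisions of the early embryo. Probe set 175834_s_at read 9.66, 10.11 and 10.07 in input. In set 2 it read 4.0, 3.43 and 3.25 in N2 and 6.36, 5.92 and 5.99 in the tagged strain, with a gap of 1.92 that was the widest of the 9 probe sets. The change of 2.53 ± 0.65 (1.06 to 4.01), or 5.79-fold, had a larger standard error than that of cdc-25.1 and was not called (unadjusted p = 0.00375, limma adjusted p = 0.0603). It passed without anti-FLAG replicate 1 (adjusted p = 0.00679) or 3 (0.0361) of set 1, in a fit of its own 6 arrays (0.0054) and in one of all 15 arrays (0.0284). After quantile normalization it was 0.64 (adjusted p = 0.559).

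In set 1 plk-1 varied more. The same probe set read 2.77, 3.83 and 4.49 after anti-MYC and 3.75, 5.66 and 6.36 after anti-FLAG. Anti-FLAG replicate 1 lay below anti-MYC replicates 2 and 3, and the other anti-FLAG arrays lay above all controls. The change was 1.56 ± 0.65 (0.09 to 3.03), or 2.95-fold (adjusted p = 0.322), and 2.31 without that array (adjusted p = 0.02). The difference between the strategies was -0.97 ± 0.919 (adjusted p = 0.997). The second plk-1 probe set, 191731_s_at, read 9.35, 9.79 and 9.80 in input, 3.46, 2.94 and 2.53 in N2, and 4.21, 4.09 and 4.07 in the tagged anti-FLAG IPs of set 2. Those groups did not overlap, and the change was 1.14 ± 0.577, or 2.21-fold (adjusted p = 0.175). In set 1 its arrays overlapped, and its change of 0.69 ± 0.577 was not called (adjusted p = 0.458). That change was 1.42 and called without anti-FLAG replicate 1 (adjusted p = 0.0444), and 0.16 without anti-FLAG replicate 3 (adjusted p = 0.914). In strategy 2 it was called in a fit of its own 6 arrays (adjusted p = 0.0318).

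**Figure D2:**
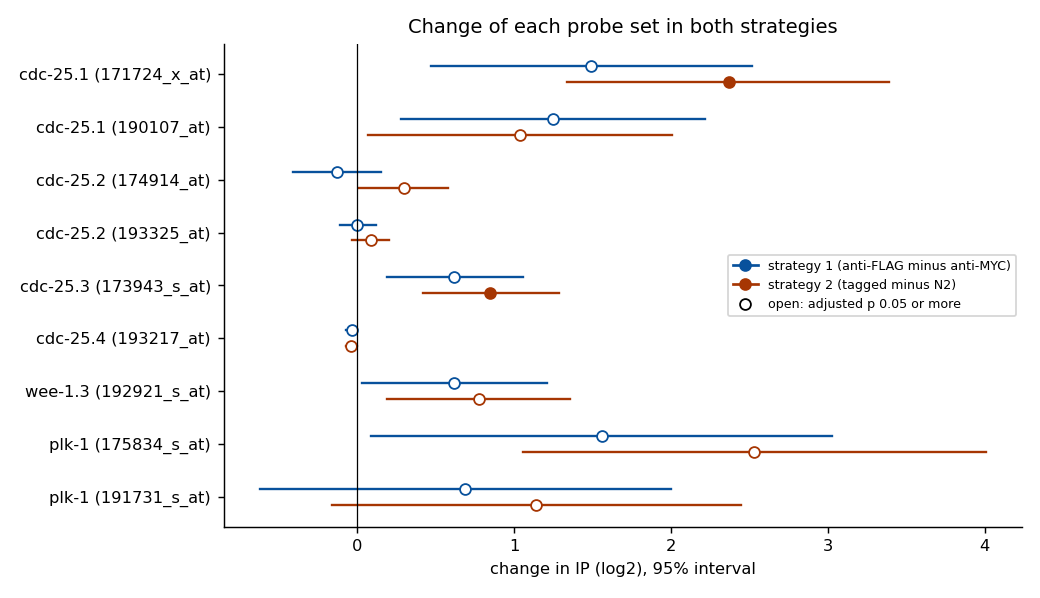
Change in log2 signal of each probe set in strategy 1 (anti-FLAG minus anti-MYC) and strategy 2 (tagged minus N2), with points for the estimates and lines for the 95% intervals of the limma fit. Filled points passed the adjusted threshold, which 171724_x_at of cdc-25.1 (2.37) and 173943_s_at of cdc-25.3 (0.85) did in strategy 2.

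Counted by gene, with each gene represented by its brightest probe set, 0 of the 6 were called in strategy 1 and 2 of the 6, cdc-25.1 and cdc-25.3, were called higher in strategy 2. Over all tested probe sets 2.41% were called higher in strategy 1 and 5.47% in strategy 2. In strategy 1 the unadjusted limma p was under 0.05, with a positive change, for 4 of the 6 genes. None of these 4 passed the adjustment (adjusted p = 0.186 to 0.322). The share of all probe sets under that unadjusted limit was not counted, so the 4 cannot be set against it. All 3 anti-FLAG arrays lay above all 3 control arrays for 1 of 6 genes in strategy 1, against 6.14% of all probe sets, and for 5 of 6 in strategy 2, against 14.9%. Called lower were 0.0577% of all probe sets in strategy 1 and 0.173% in strategy 2, and no member was among them. The median change of the 6 genes was 0.62 and 0.82, against -0.0265 and -0.0322 over all probe sets. Between the strategies 0.0% of probe sets differed at the adjusted threshold in limma, although 133 positive and 222 negative differences had an unadjusted p under 0.05. No member can therefore be said to be recovered more in 1 strategy than in the other.

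Probe sets with a high input signal were called more often. Among the 5208 probe sets with an input mean of at least log2 7, a limit chosen after the data were seen, 8.83% were called higher in strategy 1 and 18.4% in strategy 2, with median changes of 0.381 and 0.446. The 4 members above that limit, cdc-25.1, cdc-25.3, wee-1.3 and plk-1, gave 0.62 to 1.56 under the antibody comparison and 0.78 to 2.53 under the strain comparison. Those below it, cdc-25.2 and cdc-25.4, gave -0.13 and -0.03 under the first and 0.30 and -0.04 under the second. Compared with all probe sets, 96.3% had a smaller strategy 2 change than cdc-25.1, 96.6% than plk-1, 90.5% than cdc-25.3 and 89.8% than wee-1.3.

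The order of the 5 groups was input, tagged anti-FLAG of set 2, anti-FLAG of set 1, anti-MYC and N2 for cdc-25.1, wee-1.3 and plk-1. For cdc-25.3 it was the same except that N2 stood above anti-MYC. These orders are for each gene's brightest probe set. On 190107_at of cdc-25.1 the order was input, anti-FLAG of set 1, tagged anti-FLAG of set 2, N2 and anti-MYC. In all 4 genes the means of the control groups lay close together, such as 3.64 ± 0.621 after anti-MYC and 3.40 ± 0.363 in N2 for 171724_x_at of cdc-25.1 (SD, n = 3). Likewise the anti-FLAG groups were 5.13 ± 0.865 and 5.77 ± 0.30 for that gene, and neither pair of neighbours was separated beyond its spread. For cdc-25.2 the order below input was anti-MYC, tagged anti-FLAG of set 2, anti-FLAG of set 1 and N2. For cdc-25.4 it was anti-MYC, N2, anti-FLAG of set 1 and tagged anti-FLAG of set 2.

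Against input, the best recovered members still gave dim IPs. For cdc-25.1 (171724_x_at) the group mean minus the input mean was -3.85 in the tagged anti-FLAG IPs of set 2 and -6.22 in N2. For plk-1 (175834_s_at) the same differences were -3.86 and -6.39, for cdc-25.3 -4.09 and -4.94, and for wee-1.3 -4.47 and -5.25. These are descriptions, because IP and input arrays differ in total signal and in the amount of RNA labelled. The inputs were from the tagged strain, so the N2 differences also cross strains. Since whole worms were extracted, fewer cells of a type and less RNA per cell cannot be told apart in an input level.

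Of the members' relatives, plk-3 was called in both strategies and plk-2 in neither. The Polo kinase gene plk-3, on chromosome IV, read 11.23, 10.35 and 11.68 in input on probe set 191208_s_at. The values in set 2 were 5.18, 4.15 and 3.56 in N2 and 10.18, 9.70 and 9.25 in the tagged strain. The tagged IPs thus came within -1.38 of the input mean, and the change of 5.41 ± 0.828, or 42.5-fold, was called (adjusted p = 0.00553). In set 1 it read 3.45, 4.42 and 6.25 after anti-MYC and 7.53, 9.63 and 9.83 after anti-FLAG. These groups did not overlap, and the change of 4.29 ± 0.828, or 19.5-fold, was called (adjusted p = 0.031). That call was kept in 3 of the 12 refits that left out 1 array. It was lost without anti-MYC replicate 1 (0.129) or 2 (0.134), anti-FLAG replicate 2 (0.147) or 3 (0.138) of set 1, and, through the shared spread, N2 replicate 2 (0.0631) or 3 (0.0529) or tagged replicate 1 (0.0529), 2 (0.0634) or 3 (0.0552) of set 2, in adjusted p. The strategy 2 call was kept in all 12. The suffix of this probe set also marks shared sequence.

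Probe set 185928_s_at of plk-2, whose kinase acts in the pairing of meiotic chromosomes, gave 0.30 ± 0.268 in strategy 1 (adjusted p = 0.491) and 0.16 in strategy 2 (adjusted p = 0.699). Its other probe set, 173471_at, gave 0.29 (adjusted p = 0.367) and 0.37 (adjusted p = 0.194). The second Wee1-type gene, wee-1.1, lay at the arrays' lowest value in input, with a mean of 2.26, so no change is given for it.

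Other genes of M phase entry were read from a list of 24 partners, all measured, of which 8 were called higher in strategy 1 and 11 in strategy 2, and 0 lower in either. Their median changes were 1.40 and 1.69. Among 11 activators and partners of the kinase, 5 and 6 were called, with medians of 3.78 and 4.28. Among 6 inhibitors and checkpoint kinases 1 was called in each strategy, with medians of 0.06 and 0.14. Of these 6, 2 that enter the medians, wee-1.1 and atm-1, lay at the arrays' lowest value in all inputs. The input median of this list was 6.58 to 6.97, against 10.35 to 11.25 for the activators. The medians therefore do not compare recovery between the 2 lists. Among 7 genes of turnover, anchoring and substrates 2 and 4 were called, with medians of 1.45 and 1.83. These lists were drawn up with results from the same arrays known, and such counts describe them without testing them against other genes.

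The B-type cyclin genes called in both strategies were cyb-2.1 (4.98, adjusted p = 0.0334, and 6.14, adjusted p = 0.00667), cyb-2.2 (4.63, adjusted p = 0.0271, and 5.70, adjusted p = 0.00531) and cyb-3 (3.78, adjusted p = 0.0147, and 4.28, adjusted p = 0.00408). The genes cyb-2.1 and cyb-2.2 are close paralogs, so their probe sets may detect each other's RNA. For cyb-3 the strategy 2 change turned to -0.04 after cyclic loess. The DYRK-family kinase gene mbk-2, which acts at the transition from oocyte to embryo, changed by 4.10 (adjusted p = 0.0042) and 5.03 (adjusted p = 0.000794). The CCCH zinc finger genes mex-5, at 4.23 (adjusted p = 0.00606) and 5.61 (adjusted p = 0.00083), and mex-6, at 3.05 (adjusted p = 0.027) and 3.90 (adjusted p = 0.00444), encode embryonic polarity proteins that bind PLK-1. The checkpoint kinase gene chk-1 changed by 0.95 (adjusted p = 0.0361) and 1.24 (adjusted p = 0.00537) and was the only called inhibitor. Its other probe set was called in neither strategy (adjusted p = 0.322 and 0.0789). Other probe sets of cyb-3 and mex-6 were not called in strategy 1 (adjusted p = 0.188 and 0.0874) but were called in strategy 2. A further mbk-2 probe set was called in neither (adjusted p = 0.283 and 0.383). Additional probe sets of cyb-2.2, mbk-2 and mex-5 were called in both.

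Of the 8 genes called in both strategies, plk-3 included, mbk-2 and mex-5 kept the strategy 1 call in all 12 refits that left out 1 array, and all 8 kept the strategy 2 call. The strategy 1 call of chk-1 was kept in 1 of the 12, that of cyb-2.1 in 2, that of plk-3 in 3, those of cyb-2.2 and mex-6 in 5 each and that of cyb-3 in 8, with an adjusted p of up to 0.161, for chk-1. In a fit of the 6 arrays of strategy 1 alone, none of the 8 was called (adjusted p from 0.178 for mbk-2 to 0.419 for cyb-2.1). The strategy 1 change of chk-1 was also not called after quantile normalization (1.22, adjusted p = 0.109), nor those of cyb-3 (0.47, adjusted p = 0.982), mex-5 (1.71, adjusted p = 0.109) and mex-6 (0.87, adjusted p = 0.315) after cyclic loess. The genes air-1, lin-23 and ftt-2, named after their values were seen, were called in strategy 2 and not in strategy 1, at 4.92 (adjusted p = 0.0162), 1.83 (adjusted p = 0.0481) and 3.28 (adjusted p = 0.00949). The kinase gene cdk-1 itself, named on the same terms, gave 0.80 (adjusted p = 0.357) and 0.95 (adjusted p = 0.218). Other probe sets of lin-23 and ftt-2 were not called in strategy 2.

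**Figure D3:**
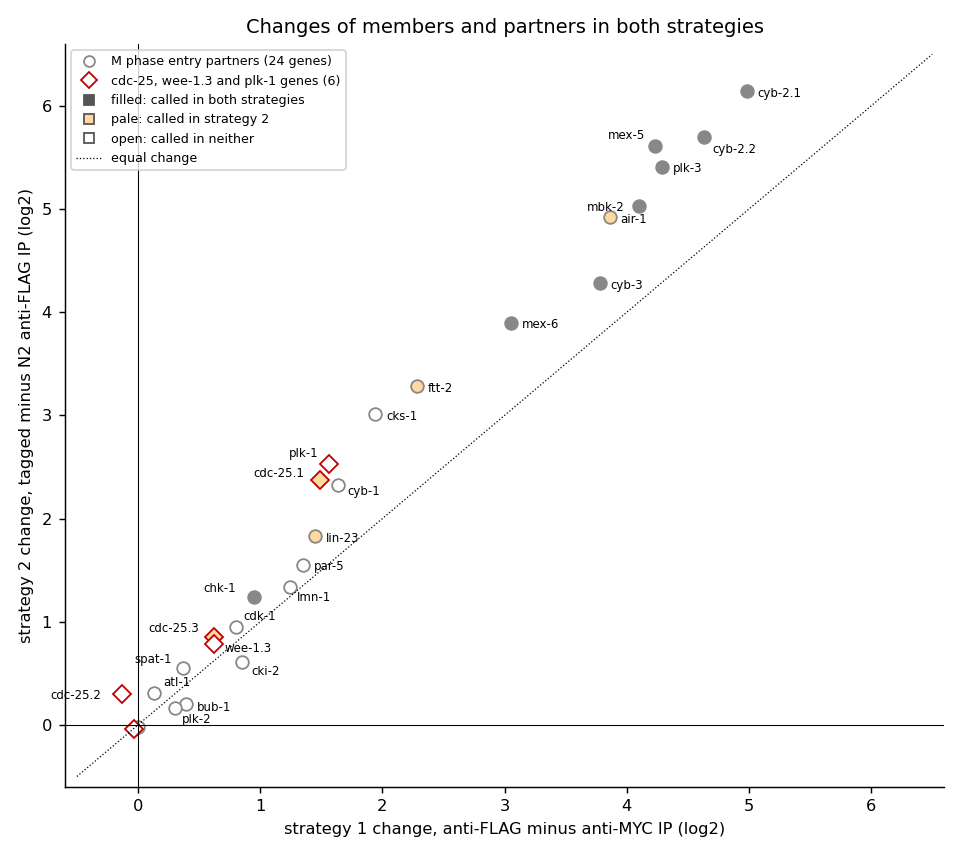
Strategy 2 change (vertical axis, log2) against strategy 1 change (horizontal axis, log2) for the 6 genes (diamonds) and their 24 partners (circles), with filled, pale and open symbols for calls in both strategies, in strategy 2 and in neither, and a dotted line of equal change. The members lie between -0.13 and 1.56 in strategy 1, below plk-3 (4.29), mbk-2 (4.10) and mex-5 (4.23), and points within 0.25 of 0 on both axes, cdc-25.4 among them, have no name.

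Some marker sums also differed between anti-FLAG and control IPs. Both IPs of set 1 came from the tagged strain, and such sums describe the RNA found in the IPs. The summed signal of the 6 oocyte markers lay at log2 12.53 to 13.88 after anti-FLAG against 6.47 to 8.85 after anti-MYC, and at 14.31 to 15.02 in the tagged strain against 7.09 to 8.52 in N2. The summed signal of the 5 neuron markers was 7.59 to 8.27 in the tagged strain against 5.10 to 5.43 in N2. That sum was carried by unc-119 and snb-1, since the median neuron change was -0.03 and 2 of 5 were positive. The sum of the 5 muscle markers, none of them called, was 7.89 to 8.85 in the tagged strain against 6.32 to 7.76 in N2. The part of any marker set in the changes of the 6 genes was not tested. The 75 ribosomal protein genes had 0 calls and median changes of -0.03 and 0.10. When each array was centred on them, the strategy 2 changes of cdc-25.1 and plk-1 were 2.19 and 2.35, but the spread of those messages between replicates then entered every probe set, and neither was called (adjusted p = 0.905 and 0.605).

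The genes whose values over the 15 arrays lay closest to a called member, after subtracting each probe set's mean, were grwd-1 and vps-39 for cdc-25.1, with root mean square differences of 0.215 and 0.231. The strategy 2 change of grwd-1 was 2.44 (adjusted p = 0.0174) and that of vps-39 was 2.33 (adjusted p = 0.0789). For cdc-25.3 they were C24H12.4 at 0.166, with a change of 0.71 (adjusted p = 0.0431), and F02E9.10 at 0.205, with 0.70 (adjusted p = 0.118). Among the members, cdc-25.3 and wee-1.3 were closest, at 0.240, followed by cdc-25.1 and plk-1 at 0.282. The latter distance was smaller than that between the probe sets of cdc-25.1, 0.569, and than that between plk-1 and plk-3, 1.40. The drop from input to IP dominates this measure, so it describes profiles over 5 groups of 3 arrays and no more.

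**Figure D4:**
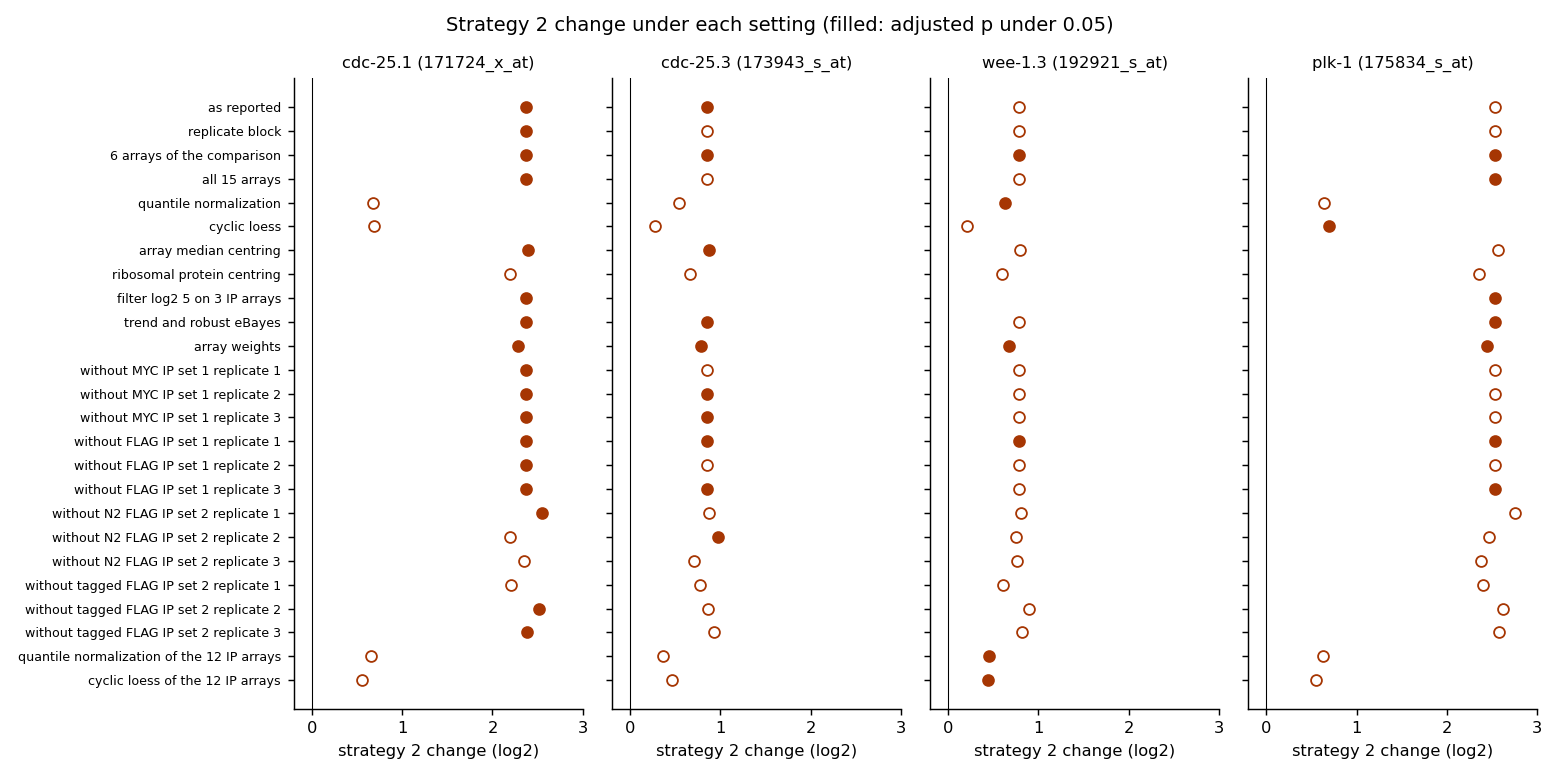
Strategy 2 change (log2) of cdc-25.1, cdc-25.3, wee-1.3 and plk-1 under each processing alternative, with filled symbols where the limma adjusted p was under 0.05. For cdc-25.1 and plk-1 the changes lie at 2.19 to 2.75 where the deposited scale was kept or shifted and at 0.55 to 0.69 after quantile normalization or cyclic loess.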

How the data were processed

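The deposited log2 values, 1 per probe set and array, were made with GCRMA, per the submitters' processing notes, and the version is not given in the sources used here. No further scaling was applied. The sample titles gave each array's group and number. The array's 77 control probe sets (of 22625) did not enter the fit. Linear models (limma 3.58.1, R 4.3.3, lmFit and eBayes, two-sided, 8 residual and 0.8489 prior degrees of freedom) were fitted to the 12 IP arrays and tested on simulated data. Signal over background and 3 arrays a group limit the precision. Genes were named through the platform annotation, and Entrez IDs matched 20701 probe sets to RefSeq WBcel235, from which chromosomes were taken. Every member was named, with gld-1, each partner called in both strategies, plk-2, plk-3 and wee-1.1, and the 2 genes most like each called member. The members and lists were chosen with earlier results of these data known.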

Additional observations from a re-analysis of the deposited data

Results flagged for a closer look

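The cdc-25.2 probe set 174914_at stood out because its anti-FLAG arrays lay on opposite sides of the controls in the strategies. Every anti-FLAG array lay below every anti-MYC array in set 1, and every tagged array lay above every N2 array in set 2. The difference of the changes, strategy 1 minus strategy 2, was -0.43, and in limma's test of that difference the adjusted p was 0.997. Its sister probe set, 193325_at, had changes of 0.00 and 0.09.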

How the results depend on the processing

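With the replicate number as a replicate block, the probe sets called higher went from 543 to 228 in strategy 1 and from 1233 to 812 in strategy 2, and the members called in strategy 2 from 2 to 1, since cdc-25.3 was lost (adjusted p = 0.0967). In strategy 1 the block also left chk-1, plk-3, mex-6 and the cyclin genes cyb-3, cyb-2.2 and cyb-2.1 uncalled (adjusted p = 0.0676 to 0.102), and mbk-2 and mex-5 stayed called. The block gave same-numbered arrays of both sets a common effect. Yet the ribosomal protein medians rose from replicate 1 to replicate 3 in set 1 and fell in set 2. The calls lost with the block therefore do not show what pairing within each set would change, which was not tested. The main fit did not take the numbers as pairs. Deviations of same-numbered arrays correlated at 0.511 to 0.8726 for replicates 1 and 3. Replicate 1 against replicate 3 gave -0.8375 and -0.8304 in set 1 and -0.5246 and -0.4958 in set 2. Same-numbered replicate 2 gave -0.07002 and 0.03656, and not every array correlated best with its own number. Replicate 2 had the middle ribosomal protein median in every IP group, so its correlation says little about pairing. Any spread shared by same-numbered arrays stayed in the standard errors of the main fit. In strategy 1 the probe sets called higher were 0 with the 6 arrays of the comparison, 178 after ribosomal protein centring, 933 with the filter at log2 5 and 6224 with array weights, and 196 to 2090 when single arrays were left out. The members called there, 0, became 1 with the filter (cdc-25.1, adjusted p = 0.039) and 4 with array weights, and were 0 to 3 when single arrays were left out. Without anti-FLAG replicate 1 of set 1 they were 3: cdc-25.1, wee-1.3 and plk-1. In strategy 2 the probe sets were 2601 with 6 arrays, 367 after ribosomal protein centring and 3195 with array weights, and 669 to 1933 when single arrays were left out. Members called in strategy 2 were 4 with 6 arrays or array weights, 1 after quantile normalization or cyclic loess over 15 or over the 12 IP arrays, 0 after ribosomal protein centring, and 0 to 4 when single arrays were left out. Probe sets called for the difference were 2 with all 15 arrays, 3 and 4 after quantile normalization and cyclic loess, 2 and 3 over the 12 IP arrays, 1388 with array weights, and 0 to 4 when single arrays were left out. The array weights fit stopped before convergence. Rescaling over the 12 IP arrays was chosen after seeing the data. Directions turned in strategy 1 for 193325_at of cdc-25.2 (quantile -0.12, ribosomal centring -0.04, quantile of 12 arrays -0.06, single arrays left out -0.02 to 0.03). They turned there too for 191731_s_at of plk-1 (quantile -0.41, loess -0.17, over 12 arrays -0.22 and -0.01) and for 185928_s_at of plk-2 (loess -0.20, over 12 arrays -0.11). In strategy 2 they turned for 174914_at of cdc-25.2 (quantile -0.62, loess -0.05, over 12 arrays -0.57 and -0.49), for 193325_at (ribosomal centring -0.09), for 185928_s_at of plk-2 (quantile -0.72, loess -0.47, ribosomal centring -0.02, over 12 arrays -0.65 and -0.31) and for cyb-3 (loess -0.04, over 12 arrays -0.42). The difference of cdc-25.3 turned to 0.32 and 0.09 after quantile normalization of 15 and 12 arrays. Ribosomal protein centring moved the strategy 2 median of all probe sets from -0.032 to -0.212. The cause of these shifts was not tested. Signals near an array's lowest value, as for cdc-25.4 and cdc-25.2, limit what could be seen.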
